A study of Mus musculus with 6 samples.

Results

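The 9 genes *Lama1*, *Lama2*, *Lama3*, *Lama4*, *Lama5*, *Lamb1*, *Lamb2*, *Lamb3* and *Lamc1* encode laminin chains. They were taken by symbol from the 23420 genes listed for mouse lungs at E11.5, and all 9 passed the filter on low values. RNA came from whole embryonic lungs, in 3 control pools of genotype Raptorf/+; ShhCre/+ and 3 mutant pools of genotype Raptorf/f; ShhCre/+. Raptor (*Rptor*) encodes the scaffold protein of mTORC1, and f is a floxed allele that Cre recombines. Controls and mutants thus shared 1 Cre-carrying *Shh* allele and at least 1 floxed *Rptor* allele. In the lung, *Shh*-driven Cre acts in the epithelium, whereas the libraries hold all cells of the lung. Each library was 1 pool of 3 or 4 lungs of the same genotype, so the spread between libraries is a spread between pools and not between single embryos. Values of a group are given in the order of pools 1, 2 and 3.

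Laminins are secreted heterotrimers of 1 α, 1 β and 1 γ chain, joined inside the cell and laid down as a sheet in the basement membrane. Their α chain carries most of the sites that bind integrins and dystroglycan on the cell surface, while nidogen binds the γ1 chain and ties the sheet to collagen IV. In the developing lung the basement membrane separates the branching epithelium from the mesenchyme, and it also surrounds vessels, smooth muscle and the mesothelium. Most trimers hold the γ1 chain (*Lamc1*) with β1 (*Lamb1*) or β2 (*Lamb2*). The β3 chain (*Lamb3*) joins the α3 chain (*Lama3*) in an epithelial trimer that anchors cells through hemidesmosomes. *Lamc3*, which encodes the γ3 chain, was examined beside the 9 genes.

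In mutant lungs the level of *Lamb3* was lower than in control lungs, and it was the 1 chain of the 9 whose change passed the test across all genes. *Lama1*, an α chain of early embryonic basement membranes, and *Lama3* were also lower in every mutant pool than in every control pool, but neither passed after adjustment. The log2 ratio of *Lamb3* to *Lamb1*, the most abundant β chain, differed by -0.78 between mutant and control lungs, without overlap. The abundant chains *Lamb1*, *Lamb2* and *Lamc1* differed by less than the spread between pools.

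Since *Lamb3* was the 1 chain called, the sequence at its start sites is given, with that of *Lamb1*, the β chain of most γ1 trimers, for comparison. The windows are those of RefSeq (GRCm38.p6), from 250 bases before to 50 bases after an annotated start, on the plus strand. The *Lamb3* windows lie at chr1:193301744-193302043 and chr1:193301993-193302292 and share 51 bases, and the *Lamb1* window lies at chr12:31265043-31265342. GENCODE M21 also holds a *Lamb3* transcript that starts further upstream, and which start was used in these lungs was not measured. Capitals mark the letters CANNTG, the general E-box core of basic helix-loop-helix factors, a pattern that reads the same on both strands.
*Lamb3* window 1: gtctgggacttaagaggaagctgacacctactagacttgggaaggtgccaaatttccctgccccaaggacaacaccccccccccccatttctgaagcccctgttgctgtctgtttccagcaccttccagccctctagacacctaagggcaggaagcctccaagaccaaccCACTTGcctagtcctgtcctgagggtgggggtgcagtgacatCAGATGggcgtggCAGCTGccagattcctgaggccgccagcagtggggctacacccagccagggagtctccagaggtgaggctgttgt
*Lamb3* window 2: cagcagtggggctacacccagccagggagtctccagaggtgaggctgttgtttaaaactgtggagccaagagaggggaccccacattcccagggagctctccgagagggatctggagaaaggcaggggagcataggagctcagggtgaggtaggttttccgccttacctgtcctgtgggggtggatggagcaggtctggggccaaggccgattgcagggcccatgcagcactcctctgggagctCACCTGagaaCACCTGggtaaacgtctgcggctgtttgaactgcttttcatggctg
*Lamb1*: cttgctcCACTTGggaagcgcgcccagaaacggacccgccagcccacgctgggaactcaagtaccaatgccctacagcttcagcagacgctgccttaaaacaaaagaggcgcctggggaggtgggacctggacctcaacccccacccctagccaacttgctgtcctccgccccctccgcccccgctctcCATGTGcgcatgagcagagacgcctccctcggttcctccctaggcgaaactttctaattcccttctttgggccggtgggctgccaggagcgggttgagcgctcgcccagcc
The *Lamb3* windows held 3 and 2 E-box cores and the *Lamb1* window held 2, and 72.3% of all 32851 promoter windows of this length held at least 1. The AP-1 letters TGANTCA, the FOXA letters TGTTTAC, the GRHL letters AACNGGTT and the letters TATAAA, each searched on both strands, had 0 matches in these 3 windows. They were present in 7.81%, 3.65%, 2.09% and 13.6% of all windows. The letters GGGCGG of SP and KLF factors matched 2 times in the *Lamb1* window and 0 times in the *Lamb3* windows, against 35.7% of all windows with a match. In windows not printed here, they matched 0 times for *Lamb2*, 1 time for *Lama2* and 4 times for *Lama5*. The window of *Lamb1* was 63.7% G and C, and those of *Lamb3* were each 59.3% G and C. A match of this kind is a description of the letters and does not show that a factor binds.

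The totals of normalized counts (reads scaled by a factor per library) ranged from 20705058 to 20865998 over the 6 libraries. The reads per library, recovered for 5 of them, ranged from 20197642 to 21276090. *Rptor*, the targeted gene, had normalized counts of 2126, 2193 and 2279 in the controls against 2023, 2137 and 2148 in the mutants (log2 fold change -0.06, limma adjusted p = 0.584). *Rptor* overlaps an antisense gene, these counts cover the whole gene in all lung cells, the groups overlapped, and the level of *Rptor* therefore does not check the genotype labels. Over 17168 tested genes the adjusted p was under 0.05 for 86, or 0.501%, and the median log2 fold change was -0.0021. Erythroid and cardiac genes were detected beside lung genes. The erythroid genes summed to 53147 to 66886 normalized counts per pool. The 6 cardiac muscle genes summed to 625 to 897 in control pools and 465 to 658 in mutant pools. Of these 6, 5 were lower in the mutant, against 50.5% of all tested genes. At an unadjusted p under 0.05, 2 were lower and 0 higher, against 6.89% and 6.67%. They were *Myh6* (log2 fold change -1.30, limma adjusted p = 0.135) and *Nkx2-5* (-1.54, limma adjusted p = 0.192). On the 5 libraries with recovered reads, edgeR called 1 of the 5 it tested lower, against 2.32% of all genes it tested.

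To place the chains, the normalized count was divided by the length of exons in GENCODE M21 (GRCm38), which allows levels to be compared between genes. *Lamc1* had the highest level in control lungs, with 1323 ± 82.8 normalized counts per kb of exon (SD, n = 3 pools). *Lamb1* followed with 668 ± 51.0 per kb. *Lama5* (311 ± 12.5 per kb) and *Lamb2* (304 ± 9.70 per kb) came next and overlapped between control pools, so that their order is not resolved.

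*Lama4*, the α chain of vessel walls, had 202 ± 24.9 per kb and *Lama1* 98.4 ± 4.59 per kb. *Lama3* had 80.6 ± 7.25 per kb and *Lama2*, an α chain of muscle and mesenchyme, 55.3 ± 4.04 per kb. *Lamb3* had 44.6 ± 6.72 per kb, the lowest of the 9 genes, and overlapped with *Lama2*. *Lamc3* was lower still, at 18.4 ± 10.1 per kb. With the length of the longest coding transcript in place of all exons, *Lama4* moved from rank 5 to rank 3 and *Lama5* from rank 3 to rank 5, while *Lamc1*, *Lamb1* and *Lamb3* kept ranks 1, 2 and 9 of these 10 chains.

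Within the α and β classes, the shares of the summed level per kb show which chain predominated. *Lamb1* made up 65.7% ± 1.94 of the β level in control lungs and 66.8% ± 1.04 in mutant lungs (SD, n = 3 pools each), and *Lamb2* made up 30.0% ± 2.31 and 30.6% ± 0.87. *Lamb3* made up 4.37% ± 0.45 in control lungs and 2.58% ± 0.25 in mutant lungs. Of the α chains *Lama5* had the largest share in both groups, with 41.7% ± 0.54 and 40.4% ± 4.13. This order depends on the length used, since per kb of the longest coding transcript *Lama4* was above *Lama5* in control lungs (403 against 311) and in mutant lungs (420.2 against 285). The summed β level per kb was above the summed α level in each of the 6 pools.

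**Figure D1:**
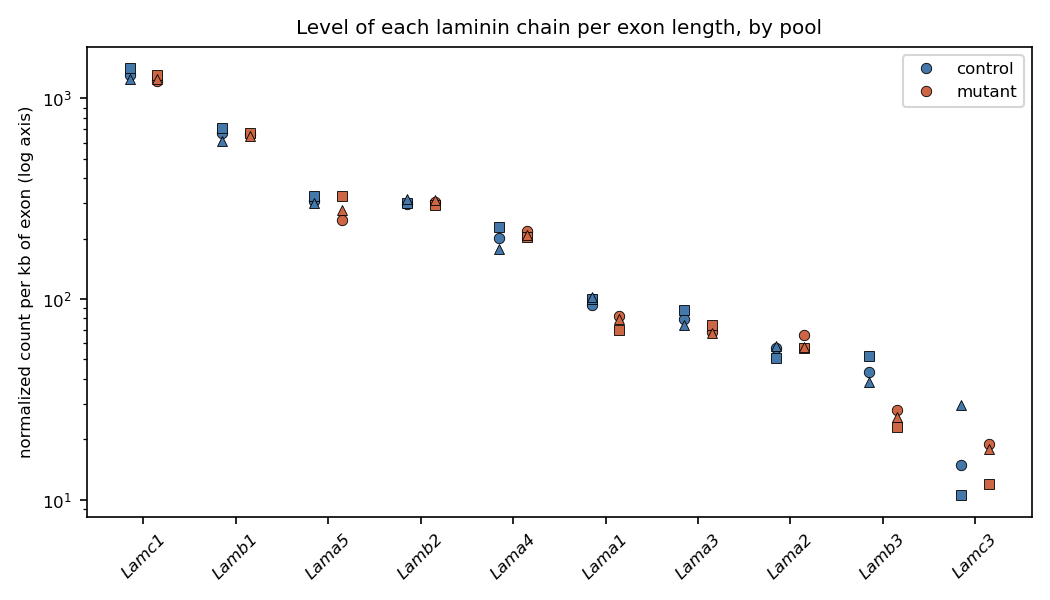
Normalized count per kb of exon (log axis) of the 9 laminin chains and of *Lamc3*, with 3 control pools (blue) and 3 mutant pools (orange) as points whose shape gives the pool number. *Lamc1* sits highest, with a control mean of 1323 per kb, and *Lamb3*, with 44.6 per kb in control pools and 25.5 per kb in mutant pools, shows the widest gap between the groups on this axis.

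For the comparison of mutant with control lungs, log2(normalized count + 1) was tested with limma across all 17168 genes, with Benjamini-Hochberg adjustment over all of them. On this scale the change of a gene with a low count is understated. At an adjusted p under 0.05, 1 of the 9 chains was lower and 0 were higher in the mutant, against 0.315% of all tested genes lower. At an unadjusted p under 0.05, 3 of the 9 were lower and 0 were higher, against 6.89% and 6.67% of all tested genes. All 3 mutant pools lay below all 3 control pools for the same 3 chains, *Lamb3*, *Lama1* and *Lama3*, against 10.5% of all tested genes. No chain of the 9 lay higher in this way, against 9.77% of all tested genes, and 20.2% had groups without overlap in either direction. The median log2 fold change of the 9 chains was -0.07.

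*Lamb3*, whose start windows are shown above, spans bases 193207699 to 193343878 of chromosome 1 (GRCm38). Its normalized counts were 286, 343 and 255 in the controls against 185, 152 and 170 in the mutants. The groups did not overlap, and the lowest control pool stood above the highest mutant pool by more than the SD of either group (control 295 ± 44.4, mutant 169 ± 16.5, n = 3 pools each). The mutant mean was 57.3% of the control mean, and the log2 fold change was -0.79 (SE 0.13, 95% interval -1.07 to -0.51, limma adjusted p = 0.0385). The counts rest on 155 to 332 reads in each of the 5 libraries whose reads were recovered. This call was narrow. It was lost without control pool 1 (limma adjusted p = 0.245) and without mutant pool 1, 2 or 3 (limma adjusted p = 0.109, 0.134 and 0.207), whereas the log2 fold change stayed between -0.89 and -0.68. It was also lost with limma without a variance trend (adjusted p = 0.226). The call was kept without control pool 2 or 3 (limma adjusted p = 0.0417 and 0.0025). It was kept as well by edgeR on the 5 libraries that also lack control pool 3 (log2 fold change -0.90, adjusted p = 0.0020).

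*Lama3*, the α partner of β3, lies on chromosome 18 from 12333819 to 12583013. Its normalized counts were 850, 950 and 797 in the controls against 732, 793 and 731 in the mutants. The highest mutant pool was just below the lowest control pool. The mean of 752 ± 35.7 in mutant lungs was 86.9% of the 866 ± 77.9 in control lungs (log2 fold change -0.20, SE 0.07, unadjusted p = 0.0203, limma adjusted p = 0.256). *Lama3* shares 1.83% of its exon bases with an antisense gene, and the counts were not stated to use the strand.

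**Figure D2:**
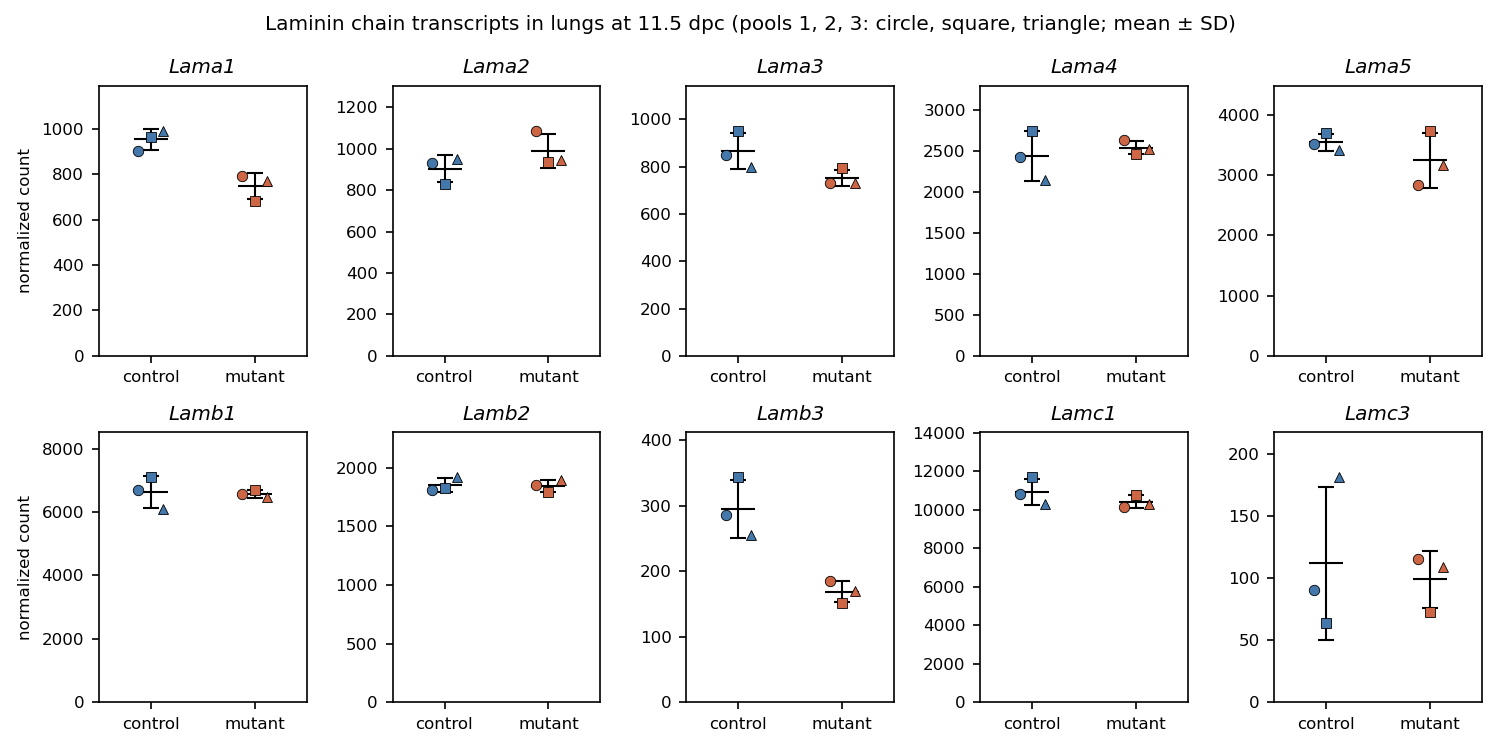
Normalized counts of the 9 laminin chains and of *Lamc3* in each pool, on linear axes from 0, with circle, square and triangle for pools 1, 2 and 3 and with the mean ± SD of each group. *Lamb3* falls from 295 to 169, *Lama1* and *Lama3* lie lower without overlap, and the other chains overlap.

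*Lama1* lies on chromosome 17 from 67697259 to 67822647 and encodes the α1 chain, which early embryonic epithelia deposit with β1 and γ1. Its normalized counts were 904, 965 and 990 in the controls against 793, 681 and 769 in the mutants. All mutant pools were below all control pools, with means of 953 ± 44.4 and 748 ± 58.6 (SD, n = 3). The log2 fold change was -0.35 (SE 0.07, 95% interval -0.51 to -0.20), and the adjusted p missed the threshold (limma adjusted p = 0.0661). It passed without control pool 3 (limma adjusted p = 0.0287) and by edgeR on the 5 libraries that also lack this pool (adjusted p = 0.0269).

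*Lama5* (chr2:180176373-180225859) encodes the α5 chain of most epithelial basement membranes, and mice without it are known to have defects of lung lobe formation. Its counts were 3514, 3698 and 3417 in the controls against 2833, 3732 and 3166 in the mutants, so that mutant pool 2 was above all controls while the other two were below them. The groups overlapped, and the SD was larger in the mutant (454) than in the control pools (143). The log2 fold change was -0.14 with a 95% interval of -0.32 to 0.05 (limma adjusted p = 0.512).

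*Lama2* and *Lama4*, the chains known from mesenchyme, muscle and vessels, had slightly higher means in mutant lungs. *Lama2* (chr10:26980036-27619758) was at 931, 828 and 950 in the controls against 1085, 935 and 946 in the mutants (log2 fold change 0.13, 95% interval -0.04 to 0.30, limma adjusted p = 0.482). *Lama4* (chr10:38965515-39110188) was at 2425, 2743 and 2143 in the controls against 2630, 2466 and 2526 in the mutants (log2 fold change 0.07, 95% interval -0.10 to 0.24, limma adjusted p = 0.752). The groups overlapped for both genes, and the direction of *Lama4* turned without control pool 3 and by edgeR on the libraries that lack it (-0.022 and -0.025). *Lama2* shares 3.86% of its exon bases with an antisense gene.

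The β and γ chains of the widely used trimers had the narrowest intervals. *Lamb1* (chr12:31265234-31329644) was at 6703, 7089 and 6087 in the controls against 6554, 6694 and 6468 in the mutants, a log2 fold change of -0.0092 with a 95% interval of -0.13 to 0.11. *Lamb2* (chr9:108479736-108490530) was at 1806, 1824 and 1916 in the controls against 1848, 1794 and 1891 in the mutants, a log2 fold change of -0.0033 with a 95% interval of -0.10 to 0.10. *Lamc1* (chr1:153218922-153332786), without whose product basement membranes do not assemble in the early embryo, was at 10817, 11683 and 10331 in the controls against 10141, 10788 and 10316 in the mutants. Its log2 fold change was -0.07 with a 95% interval of -0.18 to 0.04 (limma adjusted p = 0.577).

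For these 3 genes the groups overlapped, and the intervals leave room only for changes smaller in size than the estimate for *Lamb3*. *Lamc3* was low and variable, at 90.4, 64.1 and 181 in the controls against 115, 72.6 and 109 in the mutants (log2 fold change -0.07, 95% interval -0.79 to 0.66). A change of the size seen for *Lamb3* could not be told from no change for this gene.

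**Figure D3:**
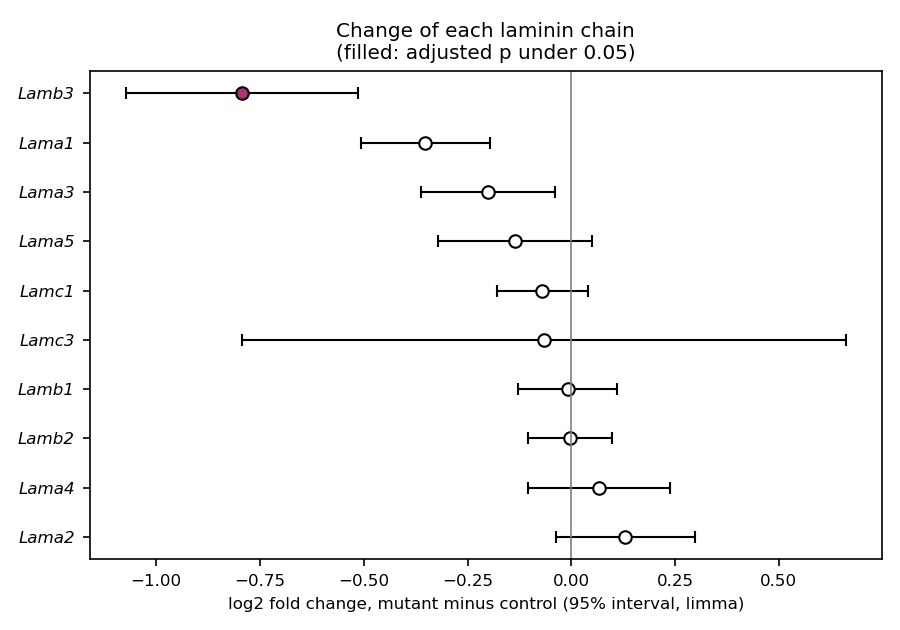
Log2 fold change (mutant minus control) of each laminin chain with its 95% interval from limma, where a filled point marks an adjusted p under 0.05. The interval of *Lamb3* runs from -1.07 to -0.51 and is the only filled one, those of *Lama1* and *Lama3* lie below 0, and the other 7 cross 0.

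Chains were then compared with their partners as log2 ratios within each pool, in which the scaling factor cancels. Of 10 pairs, 4 had groups that did not overlap, 2 lower and 2 higher in the mutant. Among single genes, 20.2% of all tested had groups without overlap in either direction. The share over all pairs of genes was not computed. An exact permutation test of 3 pools against 3 (two-sided) cannot give a p below 0.1, and this p was 0.25 after adjustment over the 10 pairs for each of the 4. The pairs share chains and are not independent.

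The ratio of *Lama3* to *Lamb3* was 1.57, 1.47 and 1.64 in the controls against 1.98, 2.38 and 2.10 in the mutants (difference 0.59, SE 0.13, exact permutation p = 0.1). Without any 1 pool the difference stayed between 0.48 and 0.68. The mutant mean was thus 57.3% of the control mean for *Lamb3* and 86.9% for its partner *Lama3*.

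Against *Lamb1*, the β chain of most trimers, *Lamb3* was at -4.55, -4.37 and -4.57 in the controls against -5.14, -5.45 and -5.24 in the mutants (difference -0.78, SE 0.11, exact permutation p = 0.1). On the log2 scale *Lamb3* alone changed by -0.79 and *Lamb1* by -0.0092, so this ratio largely repeats the change of *Lamb3*. The other β pair, *Lamb2* to *Lamb1*, had a difference of 0.0059 (SE 0.10), and its groups overlapped. *Lamb1* to *Lamc1*, the shared core of several trimers, was -0.69, -0.72 and -0.76 in the controls against -0.63, -0.69 and -0.67 in the mutants. The groups did not overlap, yet the difference of 0.06 (SE 0.03) was small beside those of the *Lamb3* pairs.

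*Lama1* to *Lamc1* was -3.58, -3.60 and -3.38 in the controls against -3.68, -3.98 and -3.74 in the mutants, a difference of -0.28 (SE 0.12, exact permutation p = 0.1). The ratios of *Lama2* (difference 0.20), *Lama4* (0.14), *Lama5* (-0.07) and *Lamb2* (0.07) to *Lamc1* overlapped between groups, as did *Lama1* to *Lama5* (-0.22, SE 0.19). Without 1 pool these differences ranged from 0.09 to 0.28 (*Lama2*, lowest without control pool 2), from 0.09 to 0.18 (*Lama4*, lowest without control pool 3), from -0.15 to 0.0081 (*Lama5*, highest without mutant pool 1), from 0.0093 to 0.13 (*Lamb2*, lowest without control pool 2) and from -0.35 to -0.045 (*Lama1* to *Lama5*, nearest 0 without mutant pool 2). Of the 4 α chains set against *Lamc1*, *Lama1* was the one with separate groups, and *Lama3* was not among those 4.

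**Figure D4:**
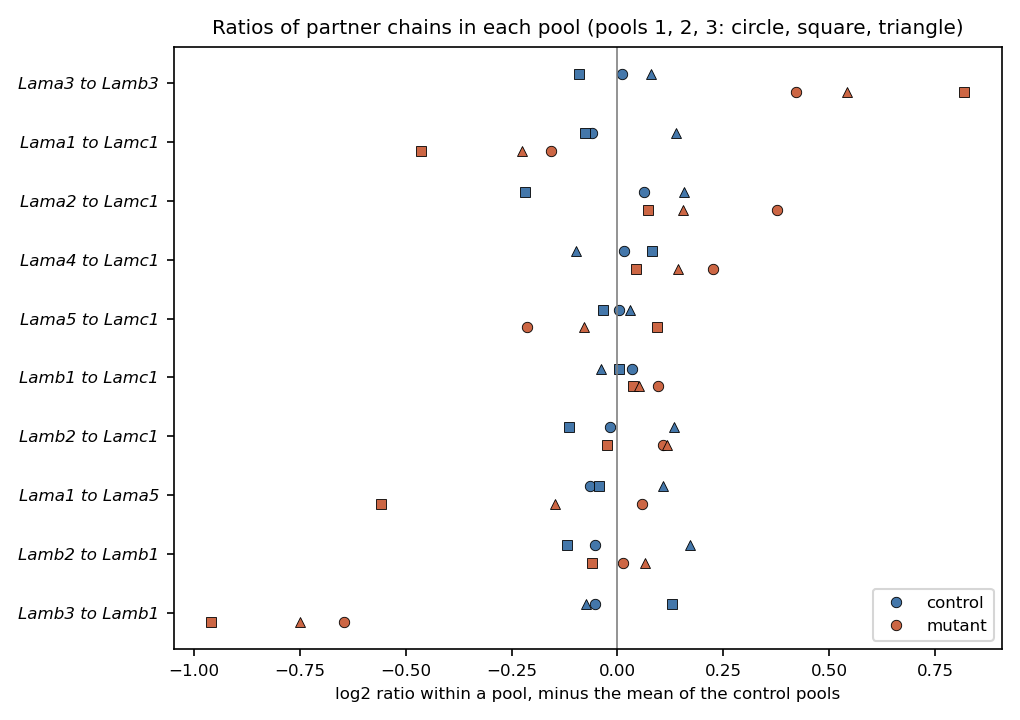
Log2 ratio of partner chains within each pool, minus the mean of the control pools, for 10 pairs, with control pools in blue, mutant pools in orange and the shape giving the pool number. The mutant pools of *Lamb3* to *Lamb1* centre at -0.78 and those of *Lama3* to *Lamb3* at 0.59, while *Lamb2* to *Lamb1* centres at 0.0059.

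Many markers of the epithelium were lower in the mutant lungs beside *Lamb3*. Of 27 epithelial genes, 7 were lower and 0 higher at an adjusted p under 0.05, against 0.315% and 0.186% of all tested genes. At an unadjusted p under 0.05, 21 were lower and 1 higher, against 6.89% and 6.67%, with a median log2 fold change of -0.46. On 5 libraries, edgeR called 18 lower and 2 higher of the 26 it tested, against 2.32% lower and 1.37% higher of the 14791 genes it tested. Their summed normalized counts were 25840 to 31611 in control pools and 21735 to 23110 in mutant pools. *Cdh1* (E-cadherin) changed by -0.97 on the log2 scale (limma adjusted p = 0.0073), *Epcam* by -0.27 (limma adjusted p = 0.300) and *Nkx2-1*, the lung epithelial transcription factor, by -0.25 (limma adjusted p = 0.218). *Cldn6* (-0.71) and *Krt8* (-0.55) also passed the adjusted threshold (limma adjusted p = 0.0119 and 0.0128). The genes that follow rose or changed little, were named after their values were seen, and did not pass the adjusted threshold in limma. The 2 genes that edgeR called higher are not named here and may be among them. *Krt19*, a keratin of simple epithelia, differed by 0.44 without overlap (unadjusted p = 0.00065, limma adjusted p = 0.0734), *Sox9* by 0.12, *Sftpc* by 0.04 and *Shh*, the gene that drives Cre here, by -0.03 (95% interval -0.16 to 0.09). In whole lungs, fewer epithelial cells and less RNA per epithelial cell cannot be told apart.

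Relative to the mean log2 value of the 27 markers, *Lamb3* was at -0.99, -0.77 and -0.89 in the controls against -1.21, -1.22 and -1.33 in the mutants. The difference was -0.37 (SE 0.07, exact permutation p = 0.1), and all mutant pools lay below all control pools. Relative to *Cdh1*, *Epcam* and *Nkx2-1* alone it was -0.30. *Lama3* was at 0.58, 0.70 and 0.74 in the controls against 0.77, 1.15 and 0.77 in the mutants (difference 0.22, SE 0.14, exact permutation p = 0.1). This difference rested largely on mutant pool 2, without which it was 0.095, and with a pseudocount of 0.1 the groups overlapped (exact permutation p = 0.3). Relative to *Cdh1*, *Epcam* and *Nkx2-1* alone, the *Lama3* difference was 0.30 over all pools (exact permutation p = 0.1). The part that epithelial content has in the change of each chain was not tested.

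**Figure D5:**
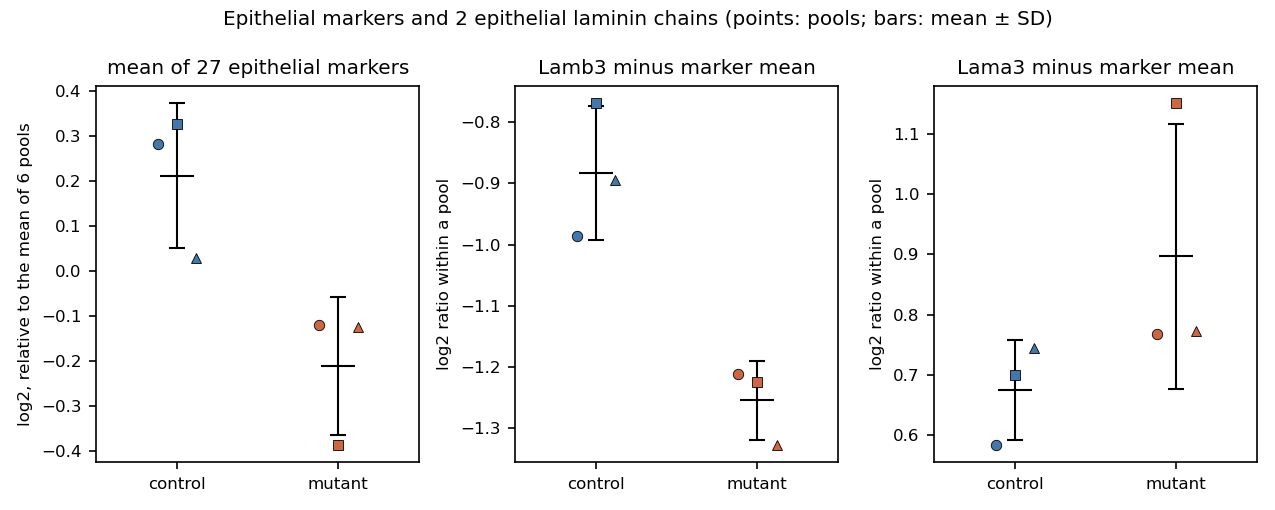
Mean log2 value of 27 epithelial markers relative to the mean of the 6 pools (left), and the log2 ratio within a pool of *Lamb3* (middle) and *Lama3* (right) to that marker mean, with pools as points and the mean ± SD as bars. The mutant mean of the *Lamb3* ratio differs from the control mean by -0.37, and that of the *Lama3* ratio by 0.22.

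Markers of mesenchyme, endothelium, smooth muscle and mesothelium had mostly higher values in mutant lungs. Of 14 mesenchymal genes, 13 had a higher value in mutant lungs, 5 at an unadjusted p under 0.05 against 6.67% of all tested genes, with a median log2 fold change of 0.12 and sums of 49834 to 51639 in control and 55214 to 55353 in mutant pools. Of 11 endothelial genes, 10 had a higher value, 6 at an unadjusted p under 0.05, with a median of 0.18 and sums of 13959 to 15705 and of 15960 to 16581. At an adjusted p under 0.05, limma called 0 genes of these 2 lists, and edgeR on 5 libraries called 2 mesenchymal genes and 1 endothelial gene, all higher, against 1.37% of all genes it tested. Among 7 smooth muscle genes limma called 0 and edgeR 2, both higher, against 1.37% of all genes it tested. At an unadjusted p under 0.05, 4 of the 7 were higher, against 6.67% of all tested genes (median 0.29, sums of 7753 to 9452 and of 10086 to 11066). Of 5 mesothelial genes *Wt1* passed the adjusted threshold (log2 fold change 0.31, limma adjusted p = 0.0496), against 0.186% of all tested genes higher. The mesothelial sums were 3660 to 4253 and 4335 to 4786. These markers stood beside the small positive differences of *Lama2* and *Lama4*, and their part in them was not tested.

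Receptors and other basement membrane genes were read beside the chains. Of 13 laminin receptors and co-receptors, limma called 0 at an adjusted p under 0.05 and edgeR on 5 libraries also called 0, with 1 lower and 0 higher at an unadjusted p under 0.05, against 6.89% and 6.67% of all tested genes. With 0.501% of all tested genes called by limma, a count of 0 in a list of this size is no result about the list. The lower gene was *Sdc4*, a syndecan that binds laminin through its sugar chains, at 512, 503 and 458 in the controls against 454, 388 and 436 in the mutants (log2 fold change -0.21, limma adjusted p = 0.303). *Dag1*, which encodes dystroglycan, differed by -0.06 on the log2 scale (limma adjusted p = 0.544). The median over the 13 receptors was -0.0070, close to the -0.0021 of all tested genes.

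Of 27 other basement membrane genes, limma called 0 at an adjusted p under 0.05. On 5 libraries, edgeR called 2, both higher, against 1.37% of all genes it tested. At an unadjusted p under 0.05, 1 was lower and 7 were higher, against 6.89% and 6.67% of all tested genes, and the median log2 fold change was 0.01. *Ntn4*, a netrin that binds laminin γ chains, was at 90.4, 90.9 and 92.4 in the controls against 70.5, 44.1 and 58.9 in the mutants (log2 fold change -0.67, limma adjusted p = 0.153). *Sparc*, a matrix protein that binds collagen IV, had a log2 fold change of 0.14 and *Col15a1* one of 0.22 (limma adjusted p = 0.153 and 0.159). Of 13 genes that build the laminin-binding sugar of dystroglycan, limma and edgeR each called 0, against 0.501% of all tested genes by limma. At an unadjusted p under 0.05, 1 was higher and 0 lower, against 6.67% and 6.89%, so these counts are no result about the list. The higher gene was *Pomgnt2*, which differed by 0.20 on the log2 scale (limma adjusted p = 0.306).

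Among 12500 tested genes with a mean normalized count of at least 50, the 5 whose log2 values followed *Lamb3* most closely over the 6 pools were *Nsdhl*, *Btg2*, *Ccnd1*, *Lin7a* and *Myo5c* (Pearson r from 0.992 to 0.998). With 6 pools in 2 groups, such values describe the likeness of patterns in these libraries only. *Ccnd1* encodes cyclin D1 and was at 7691, 8202 and 7662 in the controls against 6805, 6370 and 6571 in the mutants (log2 fold change -0.25, limma adjusted p = 0.0398). *Myo5c*, a myosin of epithelial cells, had a log2 fold change of -0.66 and *Lin7a*, a polarity scaffold gene, one of -0.58 (limma adjusted p = 0.0385 for each). *Nsdhl*, a cholesterol synthesis gene, followed the same order of pools with a log2 fold change of -0.10. Over the same 6 pools the Pearson r of *Lamb3* was 0.91 with *Lama1* and 0.83 with *Lama3*, again as a description.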

How the data were processed

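Whole embryonic lungs at E11.5 were pooled by genotype, and 3 control and 3 mutant libraries were sequenced. Groups and replicate numbers came from the titles in the labels. Per the labels, the submitters' processing notes name Trim Galore, HISAT2, featureCounts, DESeq2 and the build mm10, with no versions. The deposited signal values are normalized counts, reads that the authors scaled by a factor per library, and their mean over the 6 libraries stands beside them. Further columns hold the authors' comparison of the groups and were not used, namely a log2 fold change with its standard error, a test score and p-values. Values in 5 libraries were 100% whole multiples of 1 step within 0.1, which gave reads. Reads of control pool 3 were not used, because its step is too near 1. The controls were littermates of the mutants, but the litter or day of each pool is not given, so p-values measure the spread between pools.

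The main test was limma 3.58.1 in R 4.3.3 (lmFit, eBayes with trend) on log2(normalized count + 1) for genes at 1 or more in 3 or more libraries, with Benjamini-Hochberg adjustment, a threshold of 0.05 and no replicate block. The alternative on reads was edgeR 4.0.16 (quasi-likelihood, TMM, filterByExpr). Both tests were also run on simulated data with 200 changed genes. Limma called 79 of 100 changed by 0.5 on the log2 scale and 89 of 100 changed by 1 (17852 tested genes, 0% false calls). The edgeR calls were 83 and 93 (14808 tested genes, 7.85% false calls). These rates describe the simulated data only. In the real data, limma called from 1 to 468 genes when 1 pool was left out. Whether the simulated spread matches that between the real pools was not tested. Ratios were compared with two-sided exact permutation tests. Named genes were the 9 chains, *Lamc3*, *Rptor*, up to 3 genes with the lowest p of each list, *Cdh1*, *Epcam*, *Nkx2-1* and the 5 genes most correlated with *Lamb3*. *Krt19*, *Sox9*, *Sftpc* and *Shh* were added after their values were seen. Some planned results are not reported here. The members, lists and tests were chosen with earlier results of these data known. Exon lengths and coordinates are from GENCODE M21 (GRCm38), and promoter windows, present for 5 of the 9 chains, from RefSeq. At an unadjusted p under 0.05, 1 of 5 neural and Schwann markers was lower. The counts were 0 of 5 immune markers and 0 of 4 tested erythroid markers, against 13.6% of all tested genes in either direction. With lists this small, such counts are no result about these cell types.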

Additional observations from a re-analysis of the deposited data

How the results depend on the processing

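The alternatives were limma without trend, upper-quartile scaling (75th percentile), no filter, at least 10 in every library, a pseudocount of 0.1, a replicate block, edgeR on 5 libraries, and leaving out each of the 6 pools. The number of genes called, 86 in the fit reported, was 8 without trend, 545 by edgeR, 1, 147 and 468 without control pool 1, 2 or 3, and 12, 21 and 1 without mutant pool 1, 2 or 3. Of the 9 laminin chains, 0 were called without trend, 2 (*Lamb3* and *Lama1*) by edgeR and 0 to 2 without 1 pool. The cause of these shifts was not tested. The log2 fold change of *Lamb3* was -0.79 without trend and -0.89 to -0.68 without 1 pool. That of *Lama1* was -0.32 by edgeR, where it passed, and -0.40 to -0.29 without 1 pool. Differences near 0 changed sign. *Lama4* was at -0.025 by edgeR and at -0.022 to 0.16 without 1 pool. *Lamb2* was at 0.0017 with upper-quartile scaling, at 0.022 by edgeR and at -0.021 to 0.023 without 1 pool. *Lamb1* was at -0.069 to 0.041 without 1 pool, and *Lamc3* at 0.35 by edgeR and at -0.40 to 0.35 without 1 pool. The ratio of *Lama5* to *Lamc1* was -0.15 to 0.0081 and that of *Lamb2* to *Lamb1* -0.054 to 0.092 without 1 pool. The other ratios kept their direction in all alternatives run for them, though that of *Lama3* to the epithelial markers was 0.095 without mutant pool 2. Same-numbered pools are not stated to share more than the number. Correlations of their deviations were -0.02, 0.10 and 0.03. The value of 0.10, for pools 2, was the highest of all control and mutant pairs, but not every pool correlated best with its own number. As the litter of each pool is not given, these values do not show whether same-numbered pools share one. With the replicate block 71 genes were called, *Lamb3* among them (adjusted p = 0.0445), and the block changed no call of a chain.

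Depth limits *Lamc3* most, with 62 to 113 reads in the 5 libraries with recovered reads, and *Lamb3* next, with 155 to 332.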
